A study of Mus musculus with 16 samples.

Results

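Lct, Treh, Khk and Slc37a4 are 4 genes of sugar digestion and sugar handling in the small intestine, and they were followed here across duodenal epithelium of mice with and without Ephb4 in the intestinal epithelium. They were taken by gene name from a deposited table of 2438 genes, and all 4 were present. The libraries came from KO mice, which lacked Ephb4 in intestinal epithelial cells (7 libraries, replicates 1 to 5, 7 and 8), and from Ephb4 fl/fl mice, called flox here, whose Ephb4 alleles are floxed (9 libraries, replicates 1 to 7, 9 and 10). Both genotypes were 8 weeks old at the start and then ate a high fat diet (HFD) for 19 weeks, so no group on another diet entered any comparison. Which recombinase line deleted Ephb4 is not stated in the labels. The sample labels speak of epithelium of the duodenum, whereas the design text speaks of tissue from the proximal small intestine. The labels do not say that each library came from its own mouse, so the p-values below measure the spread between these libraries, which may in part be technical.

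Dietary sugars reach the blood in steps. Disaccharidases on the brush border of enterocytes split them: lactase, encoded by Lct, cleaves the milk sugar lactose, and trehalase, encoded by Treh, cleaves trehalose into glucose. Fructose that enters the enterocyte is phosphorylated by ketohexokinase, encoded by Khk, the first committed step of fructose breakdown. Slc37a4 encodes the glucose-6-phosphate transporter of the endoplasmic reticulum, which carries glucose-6-phosphate to the phosphatase that releases free glucose. Lactase is known as a marker of the proximal small intestine that declines after weaning, and its promoter is a textbook target of CDX, GATA and HNF1 factors.

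The stretches just before the transcription start sites are shown because the highest correlations across libraries among the 4 genes were those of Lct with Treh and of Khk with Slc37a4. All 4 genes had an entry in the RefSeq promoter table of build GRCm38.p6. Only bases ahead of every annotated start of the gene are printed, 5′ to 3′ on the gene's own strand, and capitals mark matches to 1 of the motifs named below. The coordinates are chr1:128328319-128328568 on the minus strand for Lct, and on the plus strand chr9:44672983-44673232 for Treh, chr5:30921309-30921430 for Khk and chr9:44396696-44396851 for Slc37a4.
Lct: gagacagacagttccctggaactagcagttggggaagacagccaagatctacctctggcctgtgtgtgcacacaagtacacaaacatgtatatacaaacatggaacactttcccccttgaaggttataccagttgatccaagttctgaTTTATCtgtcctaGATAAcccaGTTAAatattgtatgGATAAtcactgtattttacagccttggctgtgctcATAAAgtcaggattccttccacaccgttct
Treh: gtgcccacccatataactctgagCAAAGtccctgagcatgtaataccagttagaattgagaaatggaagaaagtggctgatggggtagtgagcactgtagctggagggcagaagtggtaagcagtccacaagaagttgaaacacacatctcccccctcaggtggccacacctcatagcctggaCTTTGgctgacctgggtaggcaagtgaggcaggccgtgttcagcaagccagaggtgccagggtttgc
Khk: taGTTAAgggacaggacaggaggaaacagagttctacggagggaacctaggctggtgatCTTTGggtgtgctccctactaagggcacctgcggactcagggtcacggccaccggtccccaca
Slc37a4: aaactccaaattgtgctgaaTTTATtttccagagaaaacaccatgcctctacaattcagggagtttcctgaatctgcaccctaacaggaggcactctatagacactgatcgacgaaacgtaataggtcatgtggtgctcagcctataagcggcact

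The motifs were searched on both strands of the 300 bases around each RefSeq start (250 before and 50 after), for these genes and for all 32851 windows of the table. They were the CDX core TTTAT, found in 40.0% of all windows, the GATA core GATAA (25.4%), the HNF1 motif GTTAA (24.2%), the HNF4 motif CAAAG (53.9%) and the E-box CACGTG (7.15%). The Lct window held TTTAT 102 and 30 bases before the start, GATAA 101, 89 and 65 bases before it, and GTTAA 80 bases before it. The TTTAT at 102 and the GATAA at 101 overlap on opposite strands, which gives the capital run TTTATC. The Treh window held none of these 3 motifs and had CAAAG 227 and 67 bases before its start. Khk had GTTAA at 248 and 60 bases, CAAAG at 191 bases and CACGTG at 71 bases before its RefSeq start. The matches at 60 and 71 bases lie beyond an earlier annotated start and are not printed. Slc37a4, with 3 RefSeq windows, had TTTAT 230 bases before 1 start and 31 bases before another. Short motifs of this kind are common, and a match is a description of letters, not of binding.

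On GRCm38, Lct lies on chromosome 1 from 128284756 to 128328318 (minus strand), Khk on chromosome 5 from 30921431 to 30931248 (plus strand), Treh on chromosome 9 from 44673233 to 44686305 (plus strand) and Slc37a4 on chromosome 9 from 44396852 to 44402968 (plus strand). Slc37a4 and Treh are thus neighbours, 270264 bases apart with 8 protein-coding genes between them. Of these 8 genes, Bcl9l and Ddx6 were listed. Treh overlaps Phldb1 on the opposite strand, and the labels do not state how reads were assigned by strand, so reads of the pair may not have been told apart. Slc37a4 holds the microRNA gene Mir7085. Reads of the Khk isoforms were counted together.

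Every value below is a normalised read count, that is, a read count divided by a size factor for its library. The reads in listed genes ran from 3592468 to 4555872 per KO library and from 4237178 to 5316273 per flox library, and depth over all genes is unknown. The table held only genes with an authors' adjusted p under 0.05 (1288 lower and 1150 higher in KO), so the 4 genes had already been selected on these same libraries, and no test below is independent of that selection. Ephb4 itself had a lowest, median and highest level of 23.3, 28.5 and 84.7 in KO libraries, against 103, 162 and 354 in flox libraries. The genotypes did not overlap for Ephb4 (two-sided exact permutation p = 8.74e-05, the smallest that the 11440 splits can give). Transcripts of the exocrine pancreas stood out in 5 flox libraries (replicates 4, 6, 7, 9 and 10), where 31 marker genes, 24 of them listed, summed to between 7368 and 146146, against at most 1826 in any other library, KO included.

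The disaccharidase genes were the most abundant of the set and were lower in KO epithelium. Lct had a lowest, median and highest level of 25626, 35756 and 48839 in KO libraries, against 35988, 47072 and 58877 in flox libraries. Lct in 5 of the 7 KO libraries lay below every flox library, while KO replicate 8 lay above the flox median, so the genotypes overlapped. The mean was 35085 ± 7425 in KO and 47448 ± 7585 in flox (SD, n = 7 and 9), which is 1.35-fold lower in KO. On the log2(normalised count + 1) scale Lct fell by 0.45 ± 0.13 (SE), with a limma adjusted p of 0.0396. Leaving out 1 library moved that adjusted p between 0.0147 and 0.0876, and Lct no longer passed without KO replicate 1, 2, 4, 5 or 7 or without flox replicate 1, 3, 4, 7, 9 or 10. In bulk tissue of this kind, fewer cells of a type and less RNA per cell cannot be told apart.

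Treh had a lowest, median and highest level of 7231, 10671 and 13824 in KO libraries, against 13284, 14446 and 17158 in flox libraries. Of the 7 KO libraries, 6 lay below every flox library, and only KO replicate 8 reached into the flox range. The mean was 10835 ± 2204 in KO and 14823 ± 1435 in flox (SD, n = 7 and 9), 1.37-fold lower in KO. Treh fell by 0.47 ± 0.11 on the log2 scale (limma adjusted p = 0.0183), and it passed in each of the 16 fits that left out 1 library. The exact two-sided permutation p, unadjusted, was 0.000437 for Treh and 0.00533 for Lct. The KO spread was wider than the flox spread for Treh and about equal to it for Lct. KO replicate 1 was the lowest KO library and KO replicate 8 the highest for both disaccharidases.

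**Figure D1:**
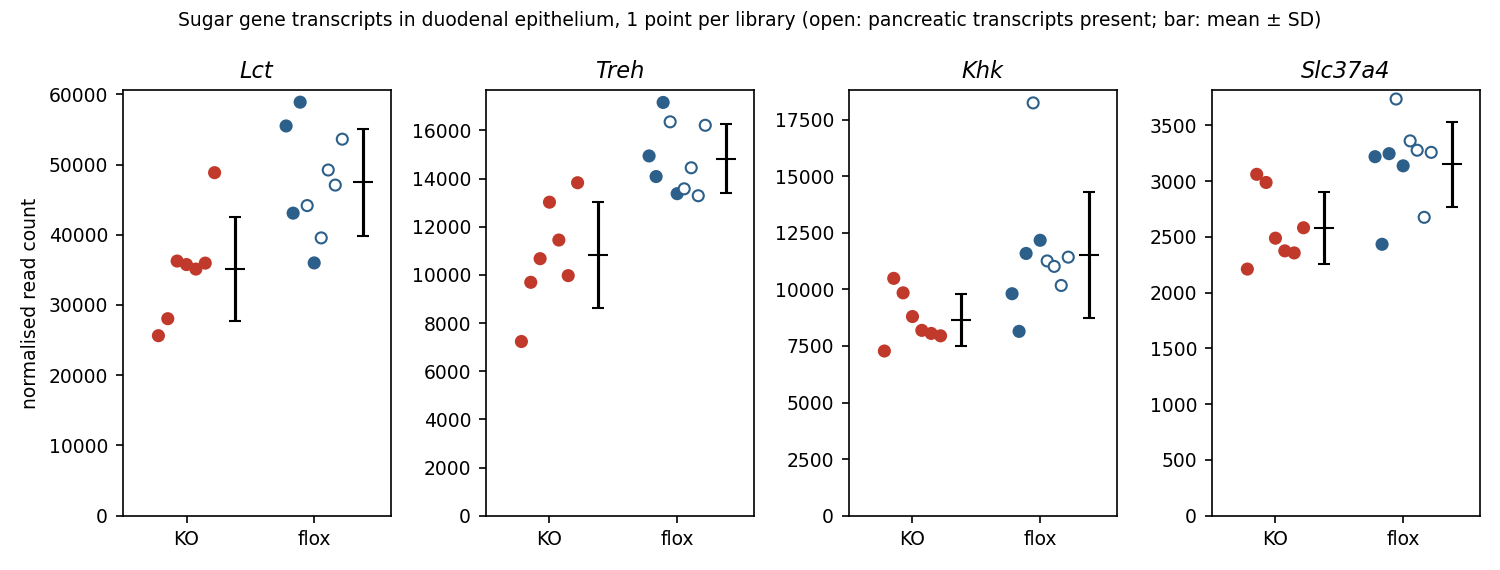
Normalised read count (y axis, from 0) of Lct, Treh, Khk and Slc37a4 in the 7 KO and 9 flox libraries, with 1 point per library and the mean ± SD beside each group. Open circles are the 5 flox libraries with pancreatic transcripts. The genotypes overlap for every gene, and the 1 Khk point at 18244 is flox replicate 4.

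Khk, the fructose kinase, had a lowest, median and highest level of 7278, 8190 and 10489 in KO libraries, against 8146, 11259 and 18244 in flox libraries. Only 3 KO libraries lay below every flox library, while 6 flox libraries lay above every KO library. Flox replicate 4 stood far above the others and flox replicate 2 sat among the KO libraries. The means were 8659 ± 1139 in KO and 11538 ± 2786 in flox (SD, n = 7 and 9), a ratio of 1.33-fold toward lower in KO. The log2 difference, KO minus flox, was -0.39 ± 0.13 (SE), which did not pass in limma (adjusted p = 0.0592). The exact permutation p for Khk alone, unadjusted, was 0.00726.

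Slc37a4, the glucose-6-phosphate transporter, had a lowest, median and highest level of 2211, 2487 and 3060 in KO libraries, against 2433, 3245 and 3735 in flox libraries. Again flox replicate 2 was the lowest flox library and flox replicate 4 the highest, and 7 flox libraries lay above every KO library. Slc37a4 averaged 2579 ± 325 in KO and 3148 ± 382 in flox (SD, n = 7 and 9), 1.22-fold apart. Its log2 difference was -0.29 ± 0.09 (SE) with a limma adjusted p of 0.0572, and its unadjusted exact permutation p was 0.00892. For Khk and Slc37a4 the highest KO library was replicate 2, not replicate 8.

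In the limma fit, then, 2 of the 4 genes passed, Lct and Treh, both lower in KO. Of all 16488 genes the authors tested, with unlisted genes counted as not called, 4.97% were called lower by the same fit. Of the listed genes fitted, from which the 4 were taken, it called 35.1% lower. That fit called 820 genes lower and 449 higher. After trimmed-mean (TMM) scaling over the listed genes the split was 189 lower and 723 higher, and none of the 4 genes passed. The edgeR quasi-likelihood test on recovered reads also passed Lct and Treh only, with 4.99% of genes called lower (823 of the 2339 listed genes fitted). Its adjusted p was 0.0552 for Khk and 0.0541 for Slc37a4. DESeq2, which the submitters' processing notes also name, passed all 4 on the same reads, with 7.52% called lower. It called 1240 of the 2339 listed genes fitted lower. The 4 genes had been listed by the authors' adjusted p on these libraries, and the log2 difference of Lct was -0.4355 in both. This rerun therefore repeats the selection and adds no separate support. The authors' deposited table lists all 4 as lower, with 7.81% of its tested genes called lower. Their log2 fold changes in the authors' deposited table were -0.45 for Treh (adjusted p = 0.00239), -0.44 for Lct (0.0113), -0.41 for Khk (0.0202) and -0.29 for Slc37a4 (0.0259). Of the 2438 listed genes 177, or 7.26%, had genotypes that did not overlap, and 0 of these 4 genes were among them.

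The 4 differences were then set beside those of the other listed genes. In the authors' deposited table the median log2 fold change was -0.42 over the 4 genes, against -0.37 over the 1288 listed genes lower in KO and -0.23 over all 2438. Among the 712 lower genes with a mean level of at least 1000, the median was -0.36. Of those 712 genes, 163 had a larger fall than Treh, 184 than Lct, 222 than Khk and 545 than Slc37a4. In limma the median difference over all 2339 genes fitted was -0.25, so Slc37a4 lay close to the median and the other 3 genes lay below it.

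Set against transcript length, the order of the genes was looser than raw counts show. Per kilobase of the length in the deposited table, Lct stood at 5477 ± 1159 normalised counts in KO and 7407 ± 1184 in flox (SD, n = 7 and 9). Treh stood at 5290 ± 1076 in KO and 7238 ± 700.5 in flox. Lct exceeded Treh in 4 of 7 KO and 5 of 9 flox libraries, so these neighbours in the order do not differ beyond their spread. Khk stood at 4818 ± 634 per kilobase in KO and 6420 ± 1550 in flox, below Treh in 4 of 7 KO and 7 of 9 flox libraries. Slc37a4 was far lower, at 903 ± 114 in KO and 1102 ± 134 in flox, and lay below Khk in all 16 libraries.

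Whether 2 of the genes differed in the size of their change was tested on the log2 ratio of the 2 within each library, which carries no scaling choice. None of the 6 pairs differed between genotypes, with exact permutation p adjusted over the 6 pairs from 0.596 to 0.792. The ratio with the largest difference was Treh over Slc37a4, at 2.05 in KO and 2.24 in flox, a difference of -0.19 ± 0.13 (SE). Lct over Treh differed least, at 1.70 in KO and 1.67 in flox, a difference of 0.028 ± 0.083. Standard errors of the 6 differences ran from 0.069 to 0.20 on the log2 scale, so these p-values do not show that the genes changed alike.

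**Figure D2:**
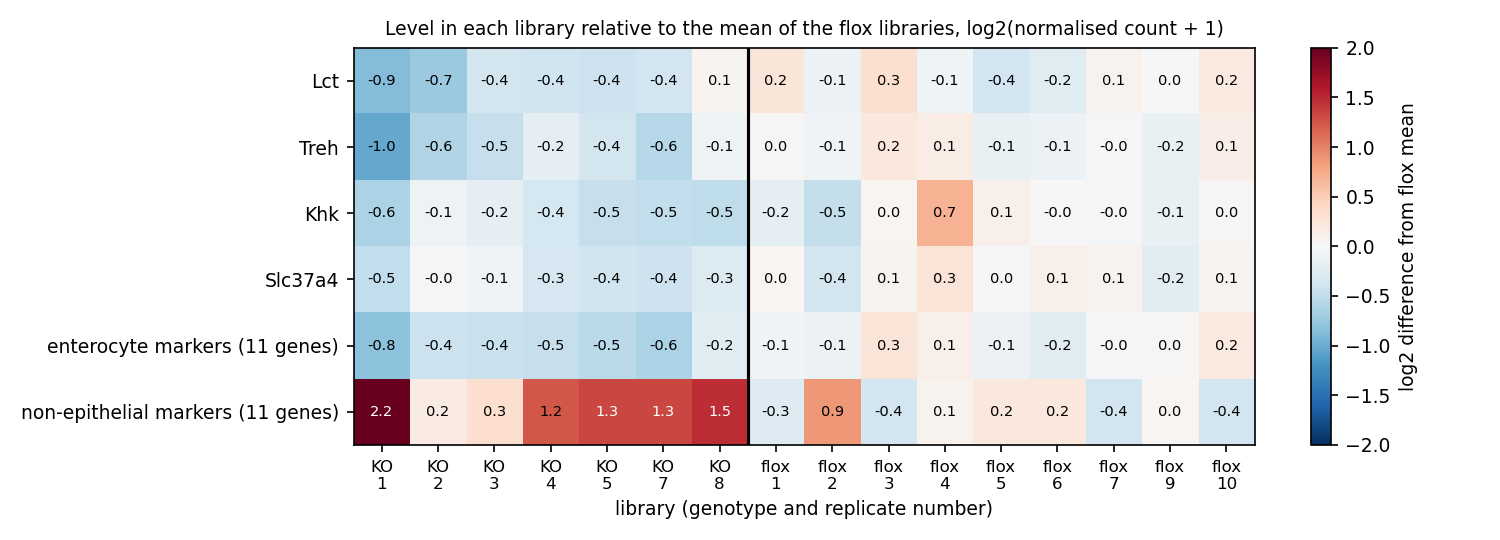
Difference of each library from the flox mean on the log2(normalised count + 1) scale, KO libraries at the left and flox libraries at the right, for Lct, Treh, Khk, Slc37a4 and the mean of 11 enterocyte and 11 non-epithelial markers. KO replicate 1 is lowest for all 4 genes and highest for the non-epithelial markers, and flox replicate 4 is highest for Khk.

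Within each genotype the correlations were highest for 2 of the 6 pairs. Among KO libraries Khk and Slc37a4 gave a Pearson r of 0.94 (exact permutation p = 0.00377, adjusted over 12 relations 0.0452) and a Spearman rho of 0.79 (exact p = 0.048, adjusted 0.352). Without KO replicates 2 and 3, the libraries farthest from the median of Khk, r was 0.65. In flox the same pair gave r = 0.81 (exact p = 0.0122, adjusted 0.0516) and rho = 0.57 (exact p = 0.121), and without flox replicates 2 and 4 r was 0.41, so that relation leans on these libraries.

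Lct and Treh gave r = 0.87 in KO (exact p = 0.0129, adjusted 0.0516; rho 0.71, exact p = 0.0881), and 0.52 without KO replicates 1 and 8. In flox they gave r = 0.69 (exact p = 0.0429, adjusted 0.129; rho 0.67, exact p = 0.0589), and 0.43 without flox replicates 3 and 5. Only the Khk and Slc37a4 relation in KO passed the adjustment by r, and none of the 12 passed by rho. Of the other pairs, Lct and Khk gave r = -0.09 in KO and -0.14 in flox, and Treh and Khk 0.19 in KO and 0.44 in flox. After TMM scaling they gave -0.23 and -0.40 for Lct and Khk in KO and flox, and 0.087 and 0.068 for Treh and Khk. Without flox replicates 3 and 4 the flox r of Treh and Khk was 0.014. All genes of a library share its depth and its cell content, and no batch is labelled.

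**Figure D3:**
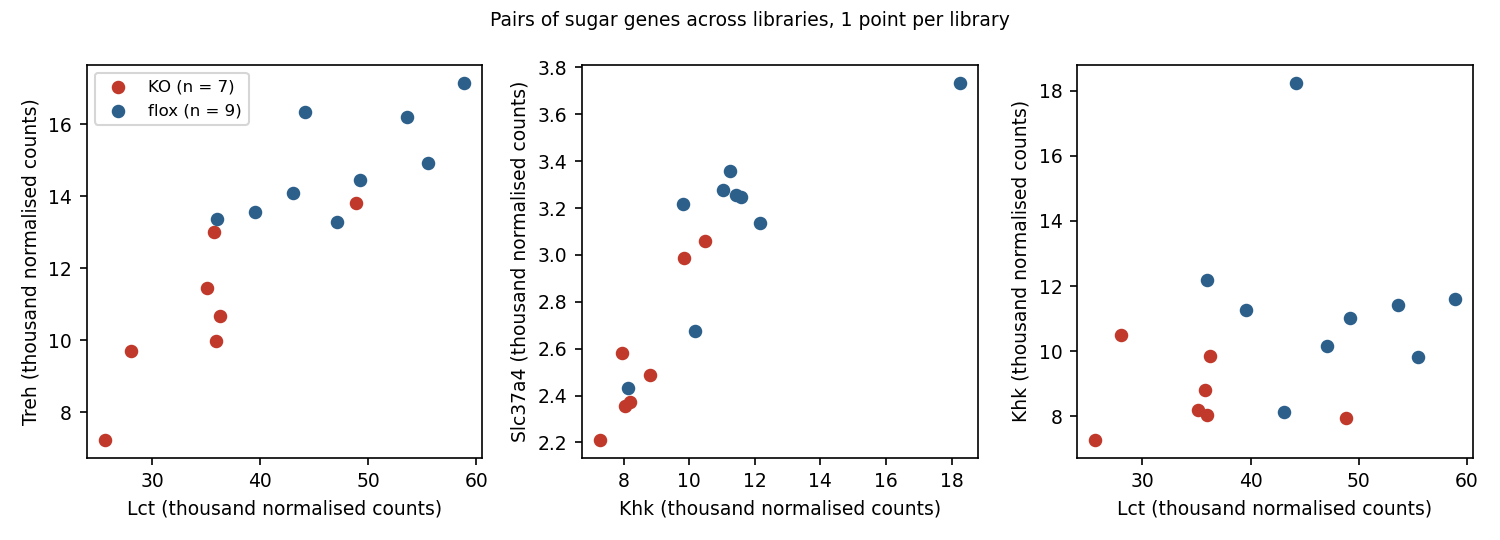
Normalised counts (axes in units of 1000) of Treh against Lct, Slc37a4 against Khk, and Khk against Lct, with 1 point per library (red KO, n = 7; blue flox, n = 9). The first 2 panels slope upward within each genotype, with r = 0.87 and 0.94 in KO, and the third does not, with r = -0.09 in KO.

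Likeness was measured over 1955 listed genes, those whose mean reached 50 or more. Those most like each gene over the 16 libraries, after removal of the genotype means, are given as a description of shared variation. Closest to Lct were Tspan5, a tetraspanin (r = 0.93), Bcr (0.90), Lrp5, a Wnt co-receptor (0.90), Mep1a, a brush-border protease (0.86), and Sema6a (0.86), with Treh at rank 34. Closest to Treh were Spint1, an inhibitor of membrane serine proteases (0.95), Pgrmc1 (0.93), Ttc39c (0.92), Ggt1, a brush-border enzyme of glutathione breakdown (0.92), and Tmbim6 (0.90), with Lct at rank 63. Closest to Khk were Ndufv1, a subunit of respiratory complex I (0.93), Gip, an incretin hormone (0.93), Ppp1r16a (0.92), Hes6, a transcription regulator of the Hes family (0.92), and Rbck1 (0.91), with Slc37a4 at rank 33. Closest to Slc37a4 were Casp9, an initiator caspase (0.88), Epn1, an endocytic adaptor (0.85), Zdhhc7, a palmitoyltransferase (0.85), Rab1b, a GTPase of vesicle traffic (0.83), and Khk itself (0.83). No gene was in the first 5 of more than 1 of the 4 genes.

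Other sugar genes came from 7 lists of 67 genes in all, of which 16 were listed, where 14.8% of all genes tested were listed. Apart from the 4 genes themselves, 12 of 63 were listed, 11 lower and 1 higher, and the authors' deposited table gave them a median log2 fold change of -0.37. limma passed 8 of the 12 as lower and 1 as higher. Over all listed genes fitted it passed 35.1% as lower and 19.2% as higher. Leaving out 1 library changed the 8 to between 2 and 9, with 4 without KO replicate 1, 5 without KO replicate 5, 3 without KO replicate 7 and 2 without flox replicate 3. The same fits called between 365 and 902 of all 2339 genes fitted lower. After TMM scaling, which called 189 genes lower in all, 2 of the 12 were called lower. Against the flox libraries without pancreatic transcripts 0 of the 12 were, with 7 at an unadjusted p under 0.05. That fit called 6 of all 2339 genes fitted lower. The transporters were Slc5a4b, of the sodium-glucose cotransporter family, and Slc5a9, a sodium-coupled sugar carrier, 2 of 10 in their list. Slc5a4b averaged 830 ± 384 in KO and 1868 ± 667 in flox (SD, n = 7 and 9) and fell by 1.21 ± 0.24 on the log2 scale (limma adjusted p = 0.0112). Its reads may in part be shared with the related gene Slc5a4a, which was not checked, so this value is uncertain. Slc5a9 averaged 706 ± 72.6 in KO and 901 ± 125 in flox (SD, n = 7 and 9) and fell by 0.35 (limma adjusted p = 0.0278).

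In fructose metabolism, 3 of 6 genes were listed. Sord, which makes fructose from sorbitol, averaged 5170 ± 1219 in KO and 7501 ± 1193 in flox (SD, n = 7 and 9) and fell by 0.56 ± 0.14 (limma adjusted p = 0.0240). Akr1b3, aldose reductase, which makes that sorbitol, was the 1 gene that rose, by 0.66 ± 0.20 (limma adjusted p = 0.0459), with 195 ± 32.8 in KO and 128 ± 40.9 in flox. Akr1b3 no longer passed in 12 of the 16 fits that left out 1 library, nor in edgeR (adjusted p = 0.0541), and its difference was 0.12 with the mean log2 level of non-epithelial markers as a covariate. Those markers had been selected as higher in KO on these libraries, so the fit with this covariate cannot decide whether Akr1b3 rose. Relatives of Akr1b3 in the aldo-keto reductase family make its counts uncertain as well. Khk was the third.

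Of the 18 glycolysis genes 5 were listed, all lower, and 4 passed. Pklr, the liver-type pyruvate kinase, averaged 7174 ± 577 in KO and 9678 ± 1136 in flox (SD, n = 7 and 9) without overlap, and it fell by 0.43 ± 0.08 (limma adjusted p = 0.00832). Hkdc1, a hexokinase family member, fell by 0.41, Tpi1 by 0.35 and Pgk1 by 0.27 (limma adjusted p 0.0344, 0.0428 and 0.0243). Pgk1 and Tpi1 have processed pseudogene copies, and how shared reads were counted is not given. Pfkl differed by -0.25, Pcx, which opens gluconeogenesis, by -0.43 and Galk1, which phosphorylates galactose, by -0.37, with limma adjusted p of 0.0761, 0.0857 and 0.0576, and none of these passed.

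Of 14 regulators of sugar genes only Cdx2, the intestinal homeobox factor, was listed. It averaged 2251 ± 299 in KO and 2795 ± 310 in flox (SD, n = 7 and 9) and fell by 0.32 ± 0.09 (limma adjusted p = 0.0333). Sucrase-isomaltase and the glucose and fructose carriers Slc5a1, Slc2a2 and Slc2a5 were not listed, and an unlisted gene may have missed the authors' threshold or not been tested. The sign of these genes varied with scaling. Of the 12, 11 were negative as deposited and after TMM, and 8 after quantile normalisation and after removal of a GC trend. When libraries were scaled to enterocyte markers 2 were negative. TMM and quantile normalisation used only listed genes, all selected as different, and the enterocyte markers used had been selected as lower. Quantile normalisation moved the median of all genes fitted to 0.0081, against -0.25 as deposited. These counts therefore cannot decide the direction. Removal of the GC trend left Slc5a4b and Pgk1 passing as lower and turned Cdx2 to 0.013, Galk1 to 0.021 and Pfkl to 0.068. With the non-epithelial covariate none of the 12 passed in limma, 2 had an unadjusted p under 0.05, and Cdx2 stood at -0.14. That fit called 4 lower and 3 higher of all 2339 genes fitted. Its markers had been selected as higher in KO, so it cannot decide the direction either.

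**Figure D4:**
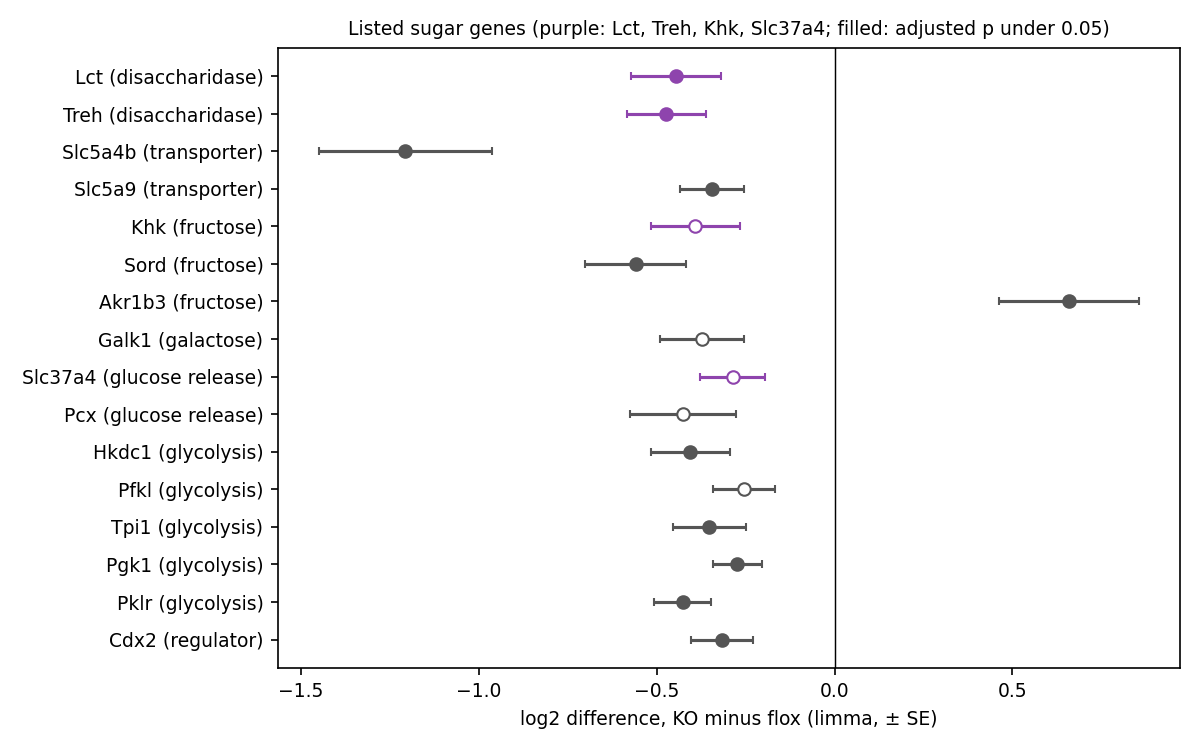
Log2 difference, KO minus flox, with its SE from limma for the 16 listed sugar genes, grouped by role (Lct, Treh, Khk and Slc37a4 in purple; filled points have an adjusted p under 0.05). All but Akr1b3 lie left of 0, from -1.21 for Slc5a4b to -0.25 for Pfkl.

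Markers of cell types were also among the listed genes. Of 24 enterocyte markers 11 were listed, all lower in the authors' deposited table, and limma passed 6 of them (Vil1, Fabp1, Fabp2, Rbp2, Myo1a and Pdzk1). Their mean log2 level ran from 14.29 to 14.87 in KO libraries and from 14.88 to 15.37 in flox libraries, without overlap. Vil1, the villus brush-border protein, stood at 47474 ± 5150 in KO and 59914 ± 6409 in flox (SD, n = 7 and 9), so the labelled tissue's own markers were abundant in both. Of 59 markers of lymphocytes, myeloid and mast cells and stroma, 11 were listed, all higher in the authors' deposited table. Of the 10 that limma could fit, 2 passed, Pecam1 of endothelium and Mcpt1 of mast cells. That count is near the share of all listed genes fitted that limma passed as higher, 19.2%. The sum of the 11 non-epithelial markers ran from 894 to 3512 in KO and from 749 to 1886 in flox. Lum, a stromal proteoglycan, had a lowest level of 0 in both genotypes. Of 16 proliferation genes 12 were listed, all higher in the authors' deposited table, and 8 passed in limma. Of all genes tested 14.8% were listed, and limma passed 35.1% of the listed genes fitted as lower.

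KO replicate 1 had the highest non-epithelial sum of the KO libraries and the lowest level of all 4 sugar genes. Among the flox libraries, replicate 2 had the highest non-epithelial sum and the lowest Khk and Slc37a4. For Lct and Treh other KO libraries did not follow that order. KO replicate 8 had the second highest mean log2 level of non-epithelial markers in KO, 6.57, and the highest Lct and Treh. KO replicate 2 had the lowest such level, 5.26, with 28048 for Lct and 9689 for Treh, each the second lowest of the KO libraries. Khk and Slc37a4 were instead highest in KO replicate 2, at 10489 and 3060, and stood at 7949 and 2581 in KO replicate 8. Beyond the values that follow, the part of these cells in the 4 differences was not tested. With the mean log2 level of the non-epithelial markers as a covariate, the differences were -0.30 for Lct, -0.33 for Treh, -0.10 for Khk and 0.00049 for Slc37a4. None passed in limma, and that fit called 4 lower and 3 higher of all 2339 genes fitted. The 11 non-epithelial markers had been selected as higher in KO on these libraries. With them as covariate the median of all genes fitted was -0.14, against -0.25 as deposited. These values therefore cannot show the part of these cells. Scaled to the listed enterocyte markers the differences were 0.064 for Lct, 0.036 for Treh, 0.12 for Khk and 0.22 for Slc37a4, and none passed. Those 11 enterocyte markers had themselves been selected as lower in KO on these libraries. Scaling to them moved the median of all genes fitted to 0.26, against -0.25 as deposited. The signs under it therefore cannot show which way the 4 genes changed. What lay behind the lower level of the markers was not tested.

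Without KO replicate 1, the limma adjusted p was 0.0286 for Treh, which still passed, and 0.0876 for Lct, which did not. The 5 flox libraries with pancreatic transcripts and the 4 without them were close for the disaccharidases, with means of 46721 and 48358 for Lct and 14773 and 14886 for Treh. They were further apart for Khk, at 12424 with and 10429 without, and for Slc37a4, at 3260 with and 3008 without. The Khk mean with pancreatic transcripts includes flox replicate 4, at 18244. In the other libraries with these transcripts Khk ran from 10175 to 11427, inside the range of 8146 to 12172 without them. Against only the 4 flox libraries without pancreatic transcripts, the differences were -0.48 for Treh, -0.46 for Lct, -0.26 for Khk and -0.22 for Slc37a4. In that smaller set none passed in limma, which called 6 lower and 5 higher of all 2339 genes fitted. So few calls say little about these 4 genes in particular. The exact permutation p was 0.0182 for Treh, 0.0545 for Lct, 0.0818 for Khk and 0.0758 for Slc37a4, where 330 splits allow no p below 0.00303.

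**Figure D5:**
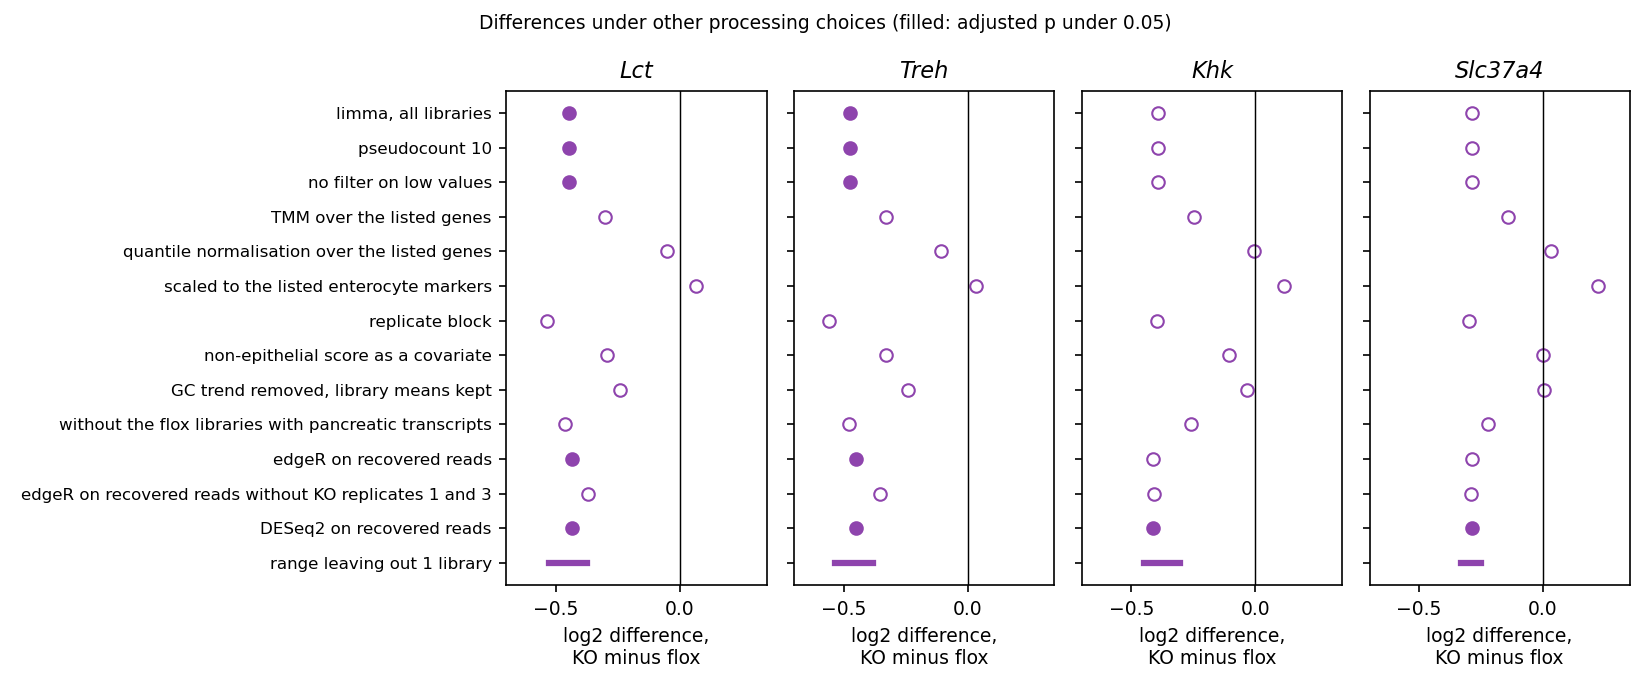
Log2 difference, KO minus flox, of each gene under the fit as reported and 12 other processing choices, with the range over leaving out 1 library as a bar (filled points have an adjusted p under 0.05). Points of Lct and Treh stay left of 0 except when scaled to enterocyte markers, and those of Slc37a4 reach or cross 0 under 4 choices.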

How the data were processed

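RNA from 16 libraries was sequenced after poly-A selection, per the labels' protocols. Per the submitters' processing notes, reads were handled on GRCm38 with DESeq2 1.20.0, HISAT2 2.0.5 and featureCounts 1.5.0-p3. The authors deposited 1 table of 2438 genes, with the largest adjusted p at 0.0497. Its library columns hold a signal, the normalised read count, and the authors also deposited log2 fold changes and p-values, adjusted over 16488 genes. In every library 100% of nonzero values were whole reads, within 0.0001, after division by a recovered step. This could not be checked independently for KO replicates 1 and 3. No replicates were duplicates (smallest chi-square per degree of freedom 16.8).

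The groups came from the sample titles. limma 3.58.1 (R 4.3.3), with robust moderation and a trend, compared the genotypes on log2(normalised count + 1), a scale on which low genes show too small a fold change. It took in the 2339 listed genes whose mean reached 10 or more. Adjustment was by Benjamini-Hochberg over 16488 genes, with every unlisted gene treated as unchanged, a conservative choice. Genes were called at an adjusted p under 0.05. edgeR 4.0.16 and DESeq2 1.42.0 were run on recovered reads as alternatives, and the programs were tested on simulated data. Single values were compared by two-sided exact permutation over 11440 splits (numpy 2.4.6). Scaling, removal of a GC trend, covariates and left-out libraries were varied, while the lists of cell markers and sugar genes were kept fixed. In the labels, 6 replicate numbers occurred in both genotypes.

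The genes named are the 4 genes, every listed gene of the 7 sugar lists, Ephb4, and for each of the 4 genes the 5 listed genes with the highest r; Bcl9l, Ddx6, Phldb1 and Mir7085 were named for their position and marker genes as examples. The members, lists and alternatives were chosen with earlier results of these data known. No enrichment was tested.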

Additional observations from a re-analysis of the deposited data

Results flagged for a closer look

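Khk in flox replicate 4 stood at 18244 normalised counts, apart from the other 8 flox libraries, of which the next highest had 12172. The gap made up 0.601 of the range of the group, above the value of 0.493 that Dixon's test sets for 9 libraries. In all, 8 groups (4 genes in 2 genotypes) were screened, and chance alone flags about 1 in 20 groups. Without flox replicate 4 the log2 difference of Khk, KO minus flox, was -0.31.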

How the results depend on the processing

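Of the 4 genes, limma called 2 lower as reported, and this count and its log2 differences (Lct, Treh, Khk, Slc37a4 in this order) changed as follows. TMM scaling gave -0.30, -0.33, -0.25 and -0.14 with 0 called, as it shifted the median of all genes by 0.14. This scaling and quantile normalisation used only listed genes, all selected as different between the genotypes. Under quantile normalisation the median of all genes was 0.0081. Quantile normalisation gave -0.051, -0.11, -0.0053 and 0.033, and scaling to enterocyte markers 0.064, 0.036, 0.12 and 0.22. The non-epithelial covariate, built from markers selected as higher in KO, gave -0.30, -0.33, -0.10 and 0.00049. Removal of a GC trend gave -0.24, -0.24, -0.033 and 0.0044. Each had 0 of the 4 genes called. Over all genes fitted, these choices called 163, 8, 4 and 188 lower, in that order. Without the 5 flox libraries with pancreatic transcripts the differences were -0.46, -0.48, -0.26 and -0.22 with 0 called. That limma fit called 6 of all 2339 genes fitted lower. The exact permutation test then passed 1 gene in place of 4. DESeq2 called 4 (Khk -0.41, Slc37a4 -0.29), which repeats the selection by which the authors listed these genes. edgeR without KO replicates 1 and 3, chosen after seeing the data, gave -0.37 for Lct and -0.36 for Treh and called 0 of the 4. It called 245 of all 2339 genes fitted lower. At an unadjusted p under 0.05, 0 of the 4 genes were lower under quantile normalisation, enterocyte scaling and the covariate, and 1, Slc37a4, was higher under enterocyte scaling. The cause was not tested.

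Leaving out 1 library gave -0.53 to -0.37 for Lct, -0.54 to -0.38 for Treh, -0.45 to -0.31 for Khk and -0.33 to -0.25 for Slc37a4, and 1 to 4 called. The count was 1 without KO replicate 1, 4, 5 or 7 or flox replicate 1, 3, 4, 7 or 10, and 4 without flox replicate 2. Calls over all 2339 genes fitted moved too, from 365 lower without KO replicate 7 to 902 lower without flox replicate 2. Exact permutation p stayed under 0.05 for all 4 genes in all 16 fits. Lct over Treh ran from -0.0019 to 0.068 and Lct over Khk from -0.16 to 0.044. After TMM, r of Lct and Slc37a4 was -0.098 in KO and -0.049 in flox.

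The labels do not state that shared numbers pair the libraries. The 6 shared numbers gave correlations of deviations from -0.43 to 0.37, and 2 of 12 libraries correlated best with their own number. These values come from genes selected as different and do not settle whether libraries were paired. The fit with a replicate block gave -0.54, -0.56, -0.40 and -0.30 with 0 of the 4 called, and 9 genes called in all against 1269.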

Other observations

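Several hormone and granin genes of enteroendocrine cells shared the library in which Khk was highest. Chga, Chgb, Cck, Sct and Gip, all listed as lower in KO in the authors' deposited table, each had their highest flox level in replicate 4. This was not particular to these genes. Slc37a4, Galk1, Pfkl, Tpi1, Apoa1, Cdhr5 and Fcgbp were also highest there among flox libraries, while others, such as Vil1 and Zg16, were highest in flox replicate 10. In limma Chga and Cck passed, while Chgb, Sct and Gip did not (adjusted p 0.0534, 0.0997 and 0.117). Gip, the incretin gene whose level followed Khk, averaged 1370 ± 200 in KO and 1878 ± 600.2 in flox (SD, n = 7 and 9), with 3318 in flox replicate 4. Chga, a granin of secretory vesicles, averaged 890 ± 151 in KO and 1255 ± 285 in flox, with 1802 in that library. Their part in the level of Khk was not tested. The genes were singled out after their values were seen.

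Between Slc37a4 and Treh on chromosome 9, 8 protein-coding genes are annotated and 2 were listed, both lower. Bcl9l, a co-factor of beta-catenin, stood at -0.44 and Ddx6, an RNA helicase, at -0.19 as log2 fold changes, KO over flox, of the authors' deposited table.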
